A study of Rattus norvegicus with 8 samples.

Results

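Krüppel-like factors (KLFs) and CCAAT/enhancer-binding proteins (C/EBPs) were followed as transcripts in primary cultures of rat semicircular canal duct (SCCD) epithelium, the cell layer that lines the canals of the vestibular labyrinth and contributes to the ion balance of endolymph. The 10 genes were Klf2, Klf4, Klf5, Klf6, Klf9, Klf10, Klf15, Cebpa, Cebpb and Cebpd, taken by gene symbol from the probe annotation, and 19 of the 15866 probe sets on the array other than controls belonged to them. Cultures were treated with 100 nM dexamethasone (n = 4) or left untreated (control, n = 4), with 1 Affymetrix A-series array per culture. All cultures came from the canals of neonatal Wistar rats and were grown on permeable supports, and neither group carried a genetic change. The time of exposure for the arrays is not given in the sources used here, nor is it said whether same-numbered cultures shared a dissection, so that a p-value here reflects only how far these cultures differ, which may be technical.

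KLFs bind GC-rich and CACCC sequences through a cluster of zinc fingers at their carboxyl end, and C/EBPs are basic leucine zipper proteins that bind DNA as dimers with one another. Both families steer differentiation, proliferation and metabolism, in epithelia and fat cells among others. Dexamethasone is a synthetic glucocorticoid, and its receptor, a transcription factor that moves to the nucleus once it binds the hormone, is known in other tissues to raise transcription of Klf9, Klf15 and Cebpd.

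Of the 11 KLF and C/EBP probe sets strong enough to be tested, 2 were higher with dexamethasone, those of Klf9 and Klf15, and 0 were lower (limma, Benjamini-Hochberg adjusted p under 0.05). Of all 10368 probe sets tested, 2.69% passed, 1.88% as higher and 0.81% as lower. A further 4 had an unadjusted p under 0.05 without passing the adjusted test, those of Klf4, Klf6 (1 of 2) and Cebpd (2 of 2), against 16.1% of all probe sets tested with an unadjusted p under 0.05, the called ones included. The weaker of these Cebpd probe sets, 1368813_at, was strong enough to be tested only through its dexamethasone signals (mean 145, against 93.6 in control). It therefore does not count as separate support for Cebpd. The median log2 fold change of the 11 was 0.40, and that of all probe sets tested was -0.023. Klf2, Klf5, Klf10, Cebpb and the other Klf6 probe set, 1387060_at, had intervals that spanned 0. Cebpa had no probe set strong enough to be tested.

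The stretch before the transcription start is shown for both genes that passed the test. RefSeq-derived windows of the rat GRCr8 build were at hand for 7 of the 10 genes (Klf4, Klf5, Klf6, Klf9, Klf15, Cebpa and Cebpb). The 250 bases before the start of Klf9 lie on the plus strand at chr1:230126396-230126645, and 2 stretches of 30 bases before the start of Klf15 lie on the plus strand at chr4:124522833-124522862 and chr4:124522898-124522927. Capitals mark the CCAAT box (CCAAT, or ATTGG on the other strand) and the half-site of the cAMP response element (TGACG, or CGTCA on the other strand).
Klf9: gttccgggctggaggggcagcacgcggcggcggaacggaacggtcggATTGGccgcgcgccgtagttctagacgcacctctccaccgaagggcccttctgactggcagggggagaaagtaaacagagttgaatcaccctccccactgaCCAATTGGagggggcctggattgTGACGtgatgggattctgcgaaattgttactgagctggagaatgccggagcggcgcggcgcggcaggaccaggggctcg
Klf15, from base 182 before the start: ggctcgTGACGtgcagcgctagCCAATggg
Klf15, from base 117 before the start: acggcgcccgcggCGTCAcgtgagcggtcg

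In Klf9 the CCAAT letters began 203, 102 and 99 bases before the start, the last pair overlapping in 1 run, and TGACG began at base 79. In Klf15, TGACG began at base 176, CCAAT at base 160 and CGTCA at base 104. Searched on both strands over the 250 bases before the start, TGACG was found in 4 of the 7 windows and CCAAT in 4, against 18.2% and 34% of the 33469 rat windows. They are the pair of 11 motifs searched with matches in most of the 7 windows, and were chosen for display after the matches had been seen. Of the others, a GC box (GGGCGG) was found in 3 of the 7 (Klf6, Cebpa and Cebpb), against 30.5% of all windows, and a TATA box (TATAAA) in 3 (Klf4, Cebpa and Cebpb), against 12.9%. An E-box (CACGTG) was found in 2 (Klf6 and Klf15, where it overlaps CGTCA), against 5.59%, and a loose C/EBP site (TTNCNNAA) in 1 (Klf4), against 37.2%. The glucocorticoid receptor half-site (AGAACA) and the full receptor site were found in 0 of the 7, against 17.5% and 0.344%. The C/EBP site TTGCNNAA, the CACCC box CCACCC and the full cAMP response element TGACGTCA were also found in 0, against 9.22%, 26.1% and 1.59%. A match describes these letters in this window only.

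Signals are intensities in arbitrary units, 1 per probe set and array. As deposited, replicates 1 and 2 of either group had a 2% trimmed mean of 500.1, and replicates 3 and 4 had 202 to 336, so that every array was rescaled to 500. Replicates 1 and 2, and replicates 3 and 4, are called the 2 array sets below, and the labels give no reason for the split. As a measure of background, the 95th percentile of 64 probe sets whose genes belong to tissues far from the ear was 97.9 to 182 on the 8 arrays, and it is called the silent level. The ratio of the 3' over the 5' probe set, which reflects RNA integrity and labelling, was 6.17 to 8.07 with dexamethasone and 8.10 to 13.7 in control for beta-actin, without overlap. For GAPDH it was 2.14 to 3.18 with dexamethasone and 2.10 to 3.79 in control, and the groups overlapped. The part of the beta-actin ratio in the results was not tested beyond a fit that holds it as a covariate. Of 11 epithelial markers, 10 were above the silent level on all 8 arrays, with summed signals of 49053 to 54345 with dexamethasone and 49470 to 61616 in control, and 1, Pax8, was above it on none. Krt18 was the only epithelial marker past the test, at -0.47 on the log2 scale (limma adjusted p = 0.0300). Of 10 fibroblast markers, 5 were above it on all arrays, with sums of 4607 to 7733 with dexamethasone and 5931 to 7691 in control. Of the markers of other cells, 0 of 4 for fat cells, 0 of 2 for melanocytes, 2 of 7 for neurons and Schwann cells, 1 of 5 for cartilage and bone and 1 of 3 for hair cells were above it on all arrays, and 0 of those tested, fibroblast markers included, passed the test. Of the silent genes, 7 were tested and 0 passed. Uox, Lhb and Ins1, among them, were above the silent level on all 8 arrays, with group means of 172 to 283. A signal above that level does not by itself show expression, and the group means of Klf2 and Cebpb given below lie in the same range. In cultures measured whole, fewer cells of a type and less RNA per cell cannot be told apart.

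**Figure D1:**
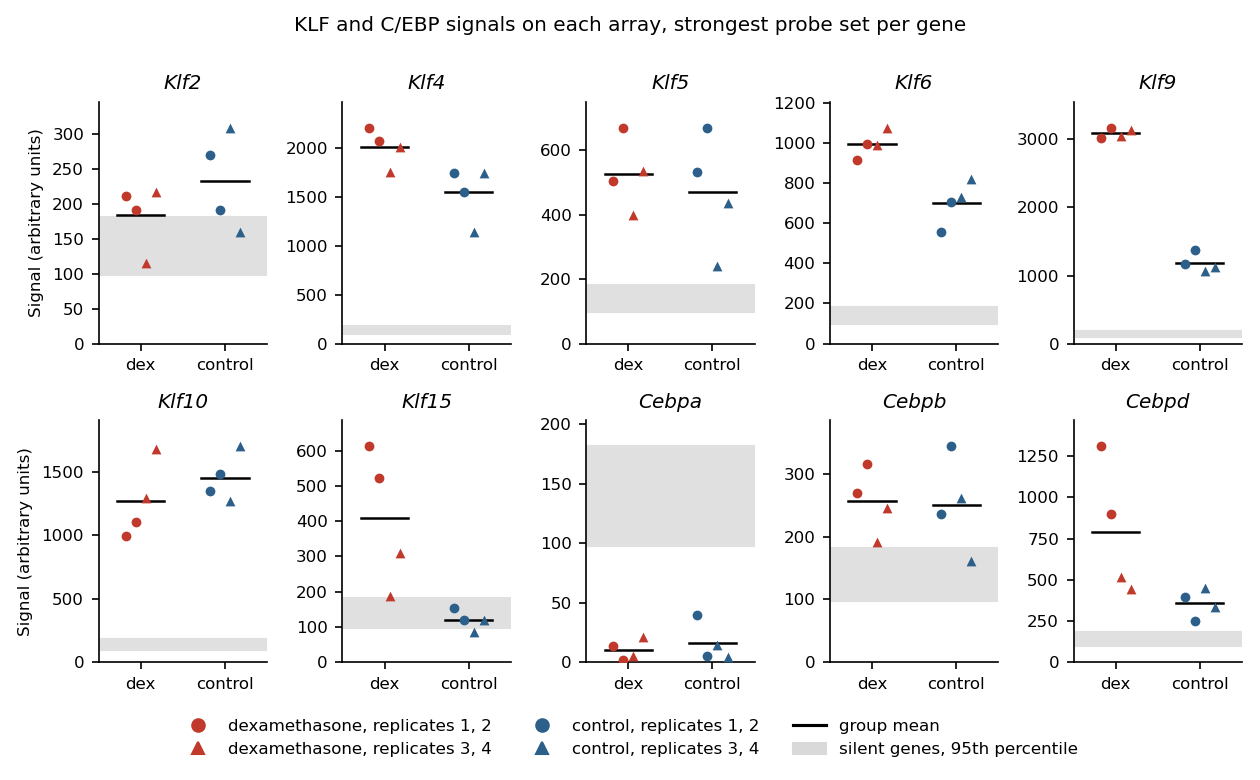
Signal of the 10 genes on each array at the probe set with the highest mean signal (points, arbitrary units on a linear axis from 0, circles for replicates 1 and 2 and triangles for replicates 3 and 4), with the group mean (line) and the range of the silent level over the arrays (grey band, 97.9 to 182). The dexamethasone arrays lie above all control arrays for Klf4, Klf6, Klf9 and Klf15, and Cebpa lies under the band on every array.

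Klf9 encodes a KLF that mostly represses transcription through a GC box or a basic transcription element and is known as a target of glucocorticoid and thyroid hormone. Its main probe set, 1370209_at, had signals of 3018, 3174, 3043 and 3138 with dexamethasone, against 1170.1, 1374, 1072 and 1130.4 in control. All dexamethasone arrays were above all control arrays, and the dexamethasone signals lay within a narrow range, with a mean of 3093 ± 74.7 (SD, n = 4) against 1187 ± 131 (SD, n = 4) in control. Klf9 was thus 2.62-fold higher, a log2 fold change of 1.39 (SE 0.10; 95% interval 1.17 to 1.61; limma adjusted p = 2.00e-05), and an exact two-sided permutation test gave p = 0.0286, which is the lowest value possible with 4 arrays in each group. Klf9 passed the test in each array set alone, at 1.29 in replicates 1 and 2 (adjusted p = 0.000288) and 1.49 in replicates 3 and 4 (adjusted p = 0.0217, limma), where 4.24% (2.76% higher and 1.49% lower) and 0.203% (0.183% higher and 0.0193% lower) of all probe sets tested passed. With the beta-actin ratio as a covariate it was 1.25 (limma adjusted p = 0.000946).

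Klf9 rose at 1 of its 3 probe sets. The probe set 1387882_at, which the annotation ties to the same accession as the main one, had signals of 9.21 to 14.1 with dexamethasone and 10.3 to 20.5 in control. The remaining one, 1390076_at, had 71.0 to 91.4 with dexamethasone and 58.4 to 106 in control. Both lay under the silent level on all 8 arrays and under the limit of 100 for testing, so that neither measured Klf9 above background.

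Klf15 encodes a KLF that turns on amino acid breakdown and gluconeogenesis in liver and muscle and is induced there by glucocorticoids. Its only probe set, 1368249_at, had signals of 613, 523, 186 and 309 with dexamethasone, against 153, 118, 85.7 and 121 in control. The groups did not overlap, though dexamethasone replicates 1 and 2 were well above replicates 3 and 4. The silent level was exceeded on 4 of 4 dexamethasone arrays and on 1 of 4 control arrays, replicate 4, so that the control level is close to background. Klf15 was 3.15-fold higher, a log2 fold change of 1.66 (SE 0.33; 95% interval 0.93 to 2.38; limma adjusted p = 0.0205), with an exact permutation two-sided p = 0.0286. With signals under the silent level raised to it, an estimate added after the data were seen, the log2 fold change was 1.28 (limma adjusted p = 0.0465).

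The size of the Klf15 difference varied with the arrays. It was 2.07 on the log2 scale in replicates 1 and 2 (adjusted p = 0.000434) and 1.24 in replicates 3 and 4 (adjusted p = 0.270, limma), and the difference between the array sets, -0.83 (SE 0.40), had an unadjusted p = 0.0659 and an adjusted p = 0.787 in limma. The adjusted p was over the threshold without dexamethasone replicate 1 (0.0564) or 2 (0.0697) or without control replicate 2 (0.0570) or 3 (0.0615), with no filter on low signals (0.145), and with the beta-actin ratio as a covariate (0.372, limma). Over the alternatives run, Klf15 stayed 1.24 to 2.07 higher on the log2 scale.

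Klf4 and Klf6 were higher on every dexamethasone array than on every control array without passing the adjusted test. Of the 11 probe sets tested, 4 were so placed, those of Klf4, Klf6 (1388986_at), Klf9 and Klf15, against 5.57% of all probe sets tested, and 0 were placed the other way, against 5.46%. Klf4, a factor of epithelial differentiation and growth arrest, had signals of 2206, 2068, 1757 and 2010.4 with dexamethasone, against 1744, 1547, 1140 and 1745 in control. The lowest dexamethasone signal was just above the highest control signal. Klf4 differed by 0.40 on the log2 scale (SE 0.14; 95% interval 0.087 to 0.71; limma adjusted p = 0.186), and this was close in both array sets, at 0.38 and 0.41. With the beta-actin ratio as a covariate it was 0.12 (limma adjusted p = 0.891).

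Klf6, a broadly expressed early response factor that restrains proliferation, had signals of 914, 997, 988 and 1077 with dexamethasone at 1388986_at, against 559, 704, 729 and 822 in control. Its difference was 0.51 on the log2 scale (SE 0.13; 95% interval 0.22 to 0.80; limma adjusted p = 0.0650). Blocking by array set gave a limma adjusted p = 0.0246, in a fit where 5.57% of all probe sets tested passed (3.32% higher and 2.26% lower), and leaving out control replicate 4 gave 0.0446. The other probe set, 1387060_at, had signals of 506, 583, 709 and 768 with dexamethasone, against 330.04, 527, 503 and 622 in control. Here the groups overlapped, and the difference was 0.39 on the log2 scale (SE 0.20; 95% interval -0.040 to 0.82; limma adjusted p = 0.364). The mean of both Klf6 probe sets gave 0.45 (limma adjusted p = 0.185).

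**Figure D2:**
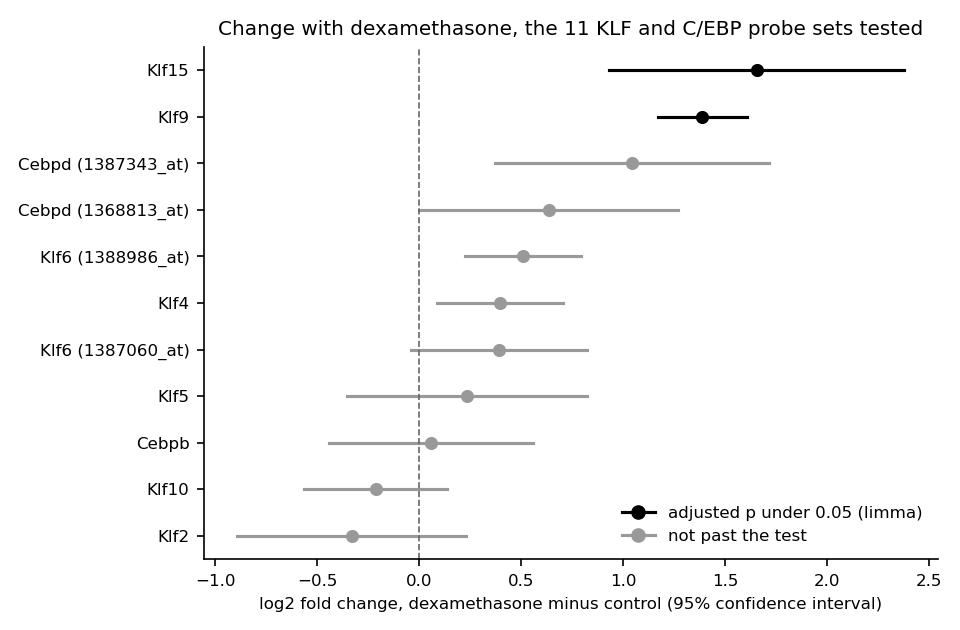
Log2 fold change of the 11 KLF and C/EBP probe sets tested (dexamethasone minus control, n = 4 arrays per group), with limma's 95% interval as horizontal lines. Klf15 (1.66) and Klf9 (1.39) are past the adjusted test (black), and the interval of Klf9 is the narrower of the pair.

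Cebpd encodes C/EBP delta, an early factor of the acute-phase response and of fat cell differentiation. Its strongest probe set, 1387343_at, had signals of 1312, 901, 516 and 443 with dexamethasone, against 395, 249, 452 and 337 in control. In 3 of 4 dexamethasone cultures the signal was above every control, and dexamethasone replicate 4 was just below control replicate 3. Cebpd differed by 1.04 on the log2 scale (SE 0.31; 95% interval 0.37 to 1.72; limma adjusted p = 0.106) and did not pass, with an exact permutation two-sided p = 0.0571.

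The Cebpd values stood apart by array set. It was 1.79 on the log2 scale in replicates 1 and 2, where it passed the test (adjusted p = 0.00324), and 0.29 in replicates 3 and 4 (adjusted p = 0.592, limma). The difference, -1.50 (SE 0.37), had an unadjusted p = 0.00203 and an adjusted p = 0.787 in limma, and 0 of all probe sets tested passed the adjusted test for such a difference, with 5.66% at an unadjusted p under 0.05. Without the filter on low signals 0.0252% passed. Of the 9 macrophage markers measured, 2 were above the silent level on all 8 arrays and 4 on none. Their summed signals were 4841, 2233, 1333 and 1469 with dexamethasone, against 1604, 1263, 1167 and 998 in control. Lyz2, the lysozyme of macrophages and some epithelia, made up most of the sum on dexamethasone replicate 1, with signals of 3415, 969, 48.8 and 78.4 with dexamethasone and 433, 351, 173 and 88.5 in control. Lyz2 was highest on the same 2 dexamethasone arrays as Cebpd. The markers above the silent level on all 8 arrays were Cd14 and Aif1. Cd14 was highest on the other 2 dexamethasone arrays, with signals of 417, 379, 597 and 782 with dexamethasone and 291, 338, 168 and 314 in control, and Aif1 had 262, 222, 199.9 and 160 with dexamethasone and 284, 179, 285 and 162.6 in control. The leukocyte marker Ptprc was under the silent level on all 8 arrays, and the part of such cells in the Cebpd result was not tested.

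The other Cebpd probe sets had lower signals. At 1368813_at they were 174, 172, 89.2 and 144 with dexamethasone, against 139, 71.0, 72.8 and 91.7 in control. These signals were above the silent level on 2 of 4 dexamethasone arrays and on 0 of 4 control arrays. The difference at 1368813_at was 0.64 on the log2 scale (SE 0.29, limma adjusted p = 0.310). With signals under the silent level raised to it, an estimate added after the data were seen, it was 0.045 (limma adjusted p = 0.957). The third, 1389828_at, had 28.8 to 123 with dexamethasone and 17.1 to 81.9 in control, above the silent level on none.

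**Figure D3:**
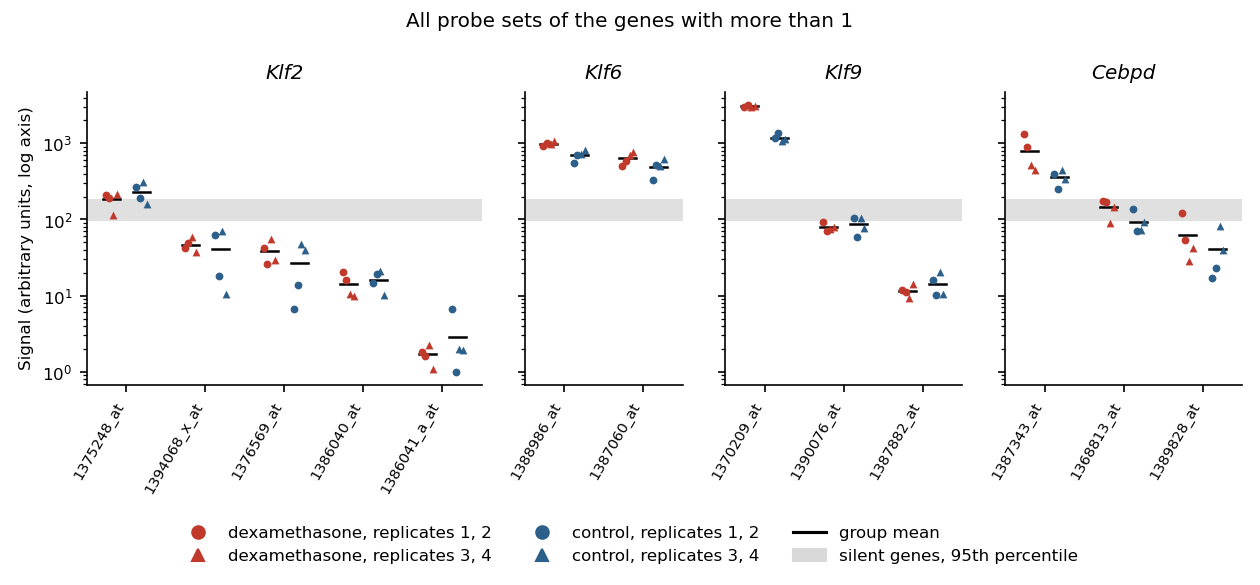
Signal on each array (arbitrary units, log axis) of all probe sets of Klf2, Klf6, Klf9 and Cebpd, with the group means (lines) and the range of the silent level (grey band, 97.9 to 182). Klf6 is above the band at both probe sets, while Klf9 is above it at 1 of 3 and Klf2 within or above it at 1 of 5, with the other 4 below.

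Cebpb encodes C/EBP beta, which acts in inflammation, gluconeogenesis and fat cell differentiation. It had signals of 270.3, 316, 192 and 247 with dexamethasone, against 237, 344, 261 and 162 in control, and was above the silent level on all 8 arrays. The groups overlapped throughout, and the difference was 0.057 on the log2 scale (SE 0.23; 95% interval -0.44 to 0.56; limma adjusted p = 0.936), an interval that leaves room for a change of either sign. Cebpa, the C/EBP of terminal differentiation in liver and fat, had signals of 2.00 to 21.4 with dexamethasone and 4.02 to 39.7 in control at its only probe set. Cebpa was under the silent level on all 8 arrays, and no fold was taken for it.

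Klf5 and Klf10 did not pass the test. Klf5, a factor of proliferating epithelial cells that often opposes Klf4, had signals of 504, 669, 399.9 and 535 with dexamethasone, against 532, 670, 242 and 436 in control. Control replicate 3 was the lowest, and the groups overlapped otherwise. Klf5 differed by 0.24 on the log2 scale (SE 0.27; 95% interval -0.35 to 0.83; limma adjusted p = 0.729), and this was -0.053 without control replicate 3. Klf10, a repressor induced by transforming growth factor beta, had signals of 996, 1104, 1290 and 1676 with dexamethasone, against 1344, 1480, 1270 and 1702 in control. The lowest signals were those of dexamethasone replicates 1 and 2, and the difference was -0.21 on the log2 scale (SE 0.16; 95% interval -0.56 to 0.14; limma adjusted p = 0.565). It was -0.43 in replicates 1 and 2 (limma adjusted p = 0.0926) and close to 0 in replicates 3 and 4.

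Klf2, a KLF best known for quiescence of endothelium and T cells, had 5 probe sets, of which 1 was tested. At 1375248_at its signals were 212, 191, 116 and 217 with dexamethasone, against 271, 191, 309 and 159 in control, above the silent level on all 8 arrays. The groups overlapped, and the difference was -0.33 on the log2 scale (SE 0.26; 95% interval -0.89 to 0.23; limma adjusted p = 0.582). The other 4 probe sets, 3 of which share 1 accession, had signals of 1.00 to 71.0 and were above the silent level on none. Of 8 endothelial markers measured, 5, with Pecam1 and Vwf among them, were under the silent level on all 8 arrays. The summed signals of the 8 were 3022 to 3645 with dexamethasone and 1228 to 1508 in control, most of it from the VEGF receptor Kdr on the dexamethasone arrays. Kdr was higher by 2.00 on the log2 scale (limma adjusted p = 2.98e-05), and their part in the Klf2 signal was not tested. Flt1, the other VEGF receptor, was under the silent level on all 4 dexamethasone arrays and above it on 3 of 4 control arrays, so that only a bound can be given. It was at least 1.35-fold lower with dexamethasone, taking each dexamethasone array at its silent level (limma adjusted p = 0.020 on the measured signals). With a dexamethasone mean of 53.6, against 182 in control, Flt1 was tested only through its control signals.

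**Figure D4:**
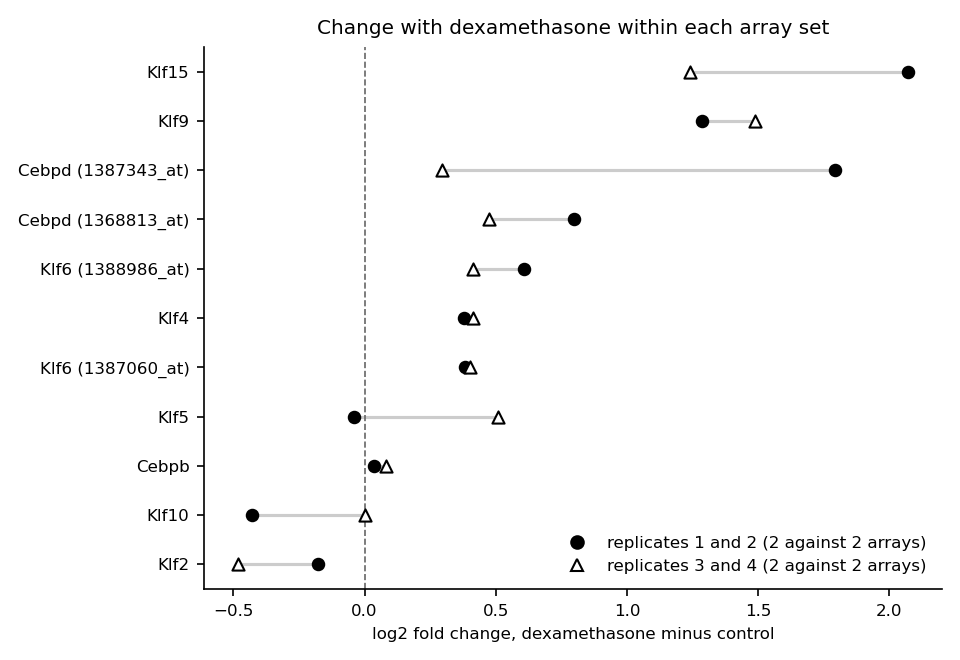
Log2 fold change of the 11 KLF and C/EBP probe sets within each array set (dexamethasone minus control, 2 against 2 arrays each, circles for replicates 1 and 2, triangles for replicates 3 and 4). Cebpd at 1387343_at has the widest gap, 1.79 against 0.29, and the values of Klf4 (0.38 and 0.41) and of Klf6 at 1387060_at (0.38 and 0.40) nearly coincide.

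The closest array profiles to that of Klf9, by the root mean square difference of centred log2 signals over the 8 arrays among 8697 probe sets with 1 gene symbol, were those of Gpd1l1 (0.079), RT1-DMa (0.13) and Akap12 (0.16). Gpd1l1 had a log2 fold change of 1.45, RT1-DMa, a rat class II histocompatibility gene, 1.38, and Akap12, a scaffold for protein kinase A, 1.28. For Klf15 they were Nupr1 (0.28), a stress-response regulator, Scnn1a (0.33), the alpha subunit of the epithelial sodium channel, and another probe set of Akap12 (0.37). The likeness was taken over the same 8 arrays that gave the fold changes.

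Other KLF and SP factors gave 0 of 4 tested genes past the test, with a median log2 fold change of 0.065 (-0.019 with Klf13 at its bound against the silent level) and 2 at an unadjusted p under 0.05. Klf13 had 150.3 ± 32.7 with dexamethasone and 95.4 ± 9.95 in control (SD, n = 4 each), with all control signals under the silent level (limma adjusted p = 0.164), and Klf16 had 405 ± 53.2 with dexamethasone and 555 ± 104 in control (SD, n = 4 each), -0.45 (limma adjusted p = 0.174). Neither overlapped between the groups. Klf3, a corepressor-binding KLF, had 0.20 (limma adjusted p = 0.409).

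Among other genes named after C/EBP and basic leucine zipper factors outside that family, 1 of 8 tested genes was higher and 0 were lower, with a median of 0.037. The one was Nfil3, a repressor that binds the same sites as Dbp, with 606 ± 75.0 with dexamethasone and 314 ± 48.6 in control (SD, n = 4 each), a log2 fold change of 0.95 (SE 0.15; limma adjusted p = 0.00518). Dbp, an activator of the PAR family, was under the silent level on all 4 dexamethasone arrays and above it on 3 of 4 control arrays (limma adjusted p = 0.152), and Cebpz and Atf3 had -0.18 and 0.33 (limma adjusted p = 0.525 and 0.580). Of 13 cofactors and regulators of KLFs or C/EBPs tested, 0 passed the test, and 1, the acetyltransferase Kat2b at 0.53 (limma adjusted p = 0.193), had an unadjusted p under 0.05. The pseudokinase Trib2 and the deacetylase Hdac3 had -0.27 and -0.12 (limma adjusted p = 0.590 and 0.677), and the median was 0.026.

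Genes known as KLF or C/EBP targets in other tissues were also counted. Of 13 acute-phase and fat cell genes tested, 2 were higher and 0 lower, with a median log2 fold change of 0.43. The median was 0.29 with the 3 genes not above the silent level in control at their bounds. Where the bound had the other sign, as for Hp, the gene was set to 0. Orm1, the acute-phase protein orosomucoid, had 1456 ± 353 with dexamethasone and 94.8 ± 30.1 in control (SD, n = 4 each), and A2m, a protease inhibitor, had 221 ± 79.5 with dexamethasone and 67.7 ± 35.8 in control (SD, n = 4 each). All control signals of both lay under the silent level, so that only bounds can be given, at least 9.80-fold higher for Orm1 (limma adjusted p = 7.97e-06) and at least 1.43-fold higher for A2m (limma adjusted p = 0.0343), which was above the silent level on 3 of 4 dexamethasone arrays. Such bounds take each array of the lower group at its silent level and were added after the data were seen. Cp, Cd14 (also among the macrophage markers) and C3 had 0.85, 0.96 and 0.57 (limma adjusted p = 0.0504, 0.0809 and 0.329). Of 7 genes tested of amino acid breakdown and other KLF15-linked functions, 1 was higher, with a median of 0.11. It was Trim63, a muscle ubiquitin ligase, at 541 ± 226 with dexamethasone and 46.5 ± 19.8 in control (SD, n = 4 each). Trim63 was under the silent level on all control arrays and thus at least 3.38-fold higher (limma adjusted p = 0.000801 on the measured signals). Trim63, too, was tested only through its dexamethasone signals. The branched-chain aminotransferases Bcat1 and Bcat2 had 0.74 and 0.29 (limma adjusted p = 0.167 and 0.529). Bckdhb, a subunit of the dehydrogenase that follows them, had -0.26 with no overlap between the groups (limma adjusted p = 0.288). Of all probe sets tested, 5.46% were lower without overlap.

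Among 16 genes tested that are tied to KLF4 and KLF5 in epithelia, 2 were lower and 0 higher, with a median log2 fold change of -0.074. Ccnd1, a cyclin that drives entry into the cell cycle, had 3042 ± 387 with dexamethasone and 5399 ± 905 in control (SD, n = 4 each), -0.82 on the log2 scale (SE 0.13; limma adjusted p = 0.00455). Sprr1a, a cornified envelope protein, had 170.04 ± 80.4 with dexamethasone and 1102 ± 683 in control (SD, n = 4 each), -2.66 (SE 0.45; limma adjusted p = 0.00724). It was above the silent level on 2 of 4 dexamethasone arrays, so that its level with dexamethasone is close to background. Odc1, of polyamine synthesis, and the mitotic cyclin Ccnb1 had -0.43 and -0.51 (limma adjusted p = 0.0638 and 0.104), and the cell cycle inhibitor Cdkn1a, which KLF4 raises in other cells, had -0.44 (limma adjusted p = 0.118). Of 4 genes tested that KLF2 governs in endothelium, 0 passed and 0 had an unadjusted p under 0.05, with a median of 0.087, and Thbd, Ccn3 and Ptgds had -0.49, 0.18 and 0.15 (limma adjusted p = 0.508, 0.741 and 0.820). For scale, 8 of 12 genes known to respond to glucocorticoid were higher and 0 lower (Sgk1, Fkbp5, Tsc22d3, Per1, Mt2A, Errfi1, Scnn1a and Dusp1). Per1 and Scnn1a were under the silent level on all control arrays and at least 1.53-fold and 1.47-fold higher, the other 6 had log2 fold changes of 0.99 to 3.19, and the median of the 12 was 1.22 (0.83 with 3 genes at their bounds). Per1 and Scnn1a, with control means of 72.7 and 87.1, were likewise tested only through their dexamethasone signals.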

How the data were processed

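Total RNA of 4 dexamethasone-treated and 4 control cultures was amplified and labelled by the authors in 2 rounds of transcription and read on Affymetrix RAE 230A arrays. The deposited values are signal intensities on a linear scale, 1 per probe set and array, made by the authors with the Affymetrix statistical algorithms, and neither detection calls nor probe pairs were used here. The labels name a scaling to a target of 500. Here arrays were brought to a 2% trimmed mean of 500 and floored at 16 before log2, and the test covered 10368 of 15866 non-control probe sets, those whose mean signal reached 100. The annotation gives 1 symbol to 12783 probe sets, several to 312 and none to 2771.

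The comparison used limma (version 3.58.1, R version 4.3.3; lmFit, eBayes with trend, two-sided, Benjamini-Hochberg over all probe sets tested), checked on simulated data. The simulated arrays had independent noise and no array sets, so that the check does not cover such structure. Probe sets under the limit were described, not tested. All probe sets of the 10 genes are named. Of the other lists, the genes past the test and at most 3 more with the smallest p are named (of marker lists, those beside a result), along with the 3 closest profiles to each changed gene. The genes and lists were chosen with earlier results of these data known. They covered other KLF and SP factors, other genes named after C/EBP with further basic leucine zipper factors, cofactors, KLF15, C/EBP, KLF4 and KLF5, and KLF2 targets, glucocorticoid response, cell type markers and silent genes. The number of arrays limits the precision. Alternatives were other filters, floors, scalings and variance models, blocks by replicate number or array set, each array set alone, the beta-actin ratio as a covariate, leaving out each array, the median of ratios and the mean over probe sets.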

Additional observations from a re-analysis of the deposited data

How the results depend on the processing

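Klf9 stayed past the test under every alternative that gave it an adjusted p, at 1.25 to 1.55 on the log2 scale. Klf15 stayed higher under all of them, at 1.24 to 2.07, but not always past the test. The count of higher KLF and C/EBP probe sets was 2, and it was 1, that of Klf9 alone, with no filter, in replicates 3 and 4 alone and with the beta-actin covariate, and 1 to 3 without any 1 array. Over all probe sets, 195 were higher and 84 lower. With no filter 81 higher and 21 lower passed, on the signals as deposited 34 and 2, in replicates 3 and 4 alone 19 and 2, and with the beta-actin covariate 57 and 8, and in replicates 1 and 2 alone 154 were lower. With the array set as a block 344 and 234 passed, and without any 1 array 128 to 192 and 49 to 83, the counts of higher being lowest without dexamethasone replicate 2 and those of lower being 49 to 52 without dexamethasone replicate 1, 2 or 4 or control replicate 2. With the replicate number as a block 308 were higher and 176 lower, and Klf6 (1388986_at) passed at an adjusted p of 0.0284 (limma). The deviations of same-numbered arrays correlated at 0.035 to 0.41, and dexamethasone replicate 3 correlated best with control replicate 4, so that the numbers were not taken as pairs.

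Klf5 turned to -0.040 in replicates 1 and 2 alone and -0.53 with the beta-actin covariate, Klf10 to 7.79e-06 in replicates 3 and 4 alone, and Cebpb to -0.084 with that covariate, none past the test. Without any 1 array Klf5 ranged from -0.053 to 0.44 and Cebpb from -0.14 to 0.23. The difference between array sets passed for 0 probe sets tested and for 4 with no filter. The causes were not tested. Signals near the silent level limit Klf2, Klf15, Cebpb and the weaker Cebpd probe sets.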
